A study of Mus musculus with 58 samples.

Results

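ChrRNA-seq (sequencing of chromatin-associated RNA, which is rich in unspliced nascent transcripts) was followed from mouse embryonic stem cells (ES d0) through day 3 (NPC d3) to day 6 (NPC d6) of a neural precursor protocol in the untreated FKBP12-PCGF35 line. The libraries were chosen by their titles and are 6 of the 58 in the series, with 2 replicates at each of the 3 stages. The cells are female, with 1 X chromosome from a Mus musculus domesticus background (129S, called Dom) and the other from Mus castaneus (Cast). By the authors' account, a recombination event in the parental iXist-ChrX-Dom line leaves part of the X without allelic information. Xist, a non-coding RNA that coats and silences the X it is transcribed from, is under a doxycycline-inducible promoter on the Dom X. PCGF3 and PCGF5, subunits of the Polycomb complex PRC1, carry an FKBP12 degron tag in all of these cells, so that the compound dTAG-13 can remove them. None of the 6 libraries received dTAG-13.

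The ES d0 cells had no doxycycline and grew in serum and LIF. The line was kept on mitotically inactivated mouse fibroblast feeders, which were removed by pre-plating before all experiments, ES d0 included, and by repeated pre-plating before the NPC course. For NPC d3 and NPC d6 the medium was changed to serum-free N2B27, and doxycycline at 1 μg/mL was present throughout. Medium, removal of LIF and serum, time and Xist induction therefore changed together and cannot be told apart in NPC against ES d0. The line is 1 engineered clone. The replicates are described as replicate experiments, in which treated and untreated cells were grown side by side, and p-values measure the spread between these libraries. The model thus describes 1 clone, with Xist switched on by a drug and always from the same X.

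As background, mouse ES cells in serum and LIF hold a naive pluripotency network (Klf4, Esrrb, Zfp42, Tbx3), which LIF sustains through STAT3. On withdrawal of these signals the cells pass through a formative, epiblast-like state marked by Fgf5 and Dnmt3b before committing to a lineage. Neural precursors are recognised by Sox1, Pax6, Nes and Notch effectors such as Hes5. In female cells X inactivation normally starts during the same transition, when Xist RNA spreads over 1 X and recruits SPEN, PRC1 and later SmcHD1.

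The libraries held 9186926 to 18471288 fragments assigned to genes, of which 44.7 to 48.4% could be assigned to an allele. The shallowest was NPC d6 replicate 2. The NPC replicates differed from each other in endoderm genes and in genes such as T, Nes and Acta2, as given below, so values are printed for each replicate, with replicate 1 first. Replicates of a stage were distinct libraries: the chi-square statistic of their counts over genes was 11.9 to 52.4 per degree of freedom, and Pearson's r of log2(CPM + 1) across genes was 0.972 at ES d0, 0.992 at NPC d3 and 0.985 at NPC d6. CPM is the number of fragments of a gene per 1000000 fragments assigned to genes in its library. Genes were tested in edgeR's quasi-likelihood framework and called at a Benjamini-Hochberg adjusted p under 0.05, and each log2 fold change below carries its standard error from that fit with n = 2 libraries per group.

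Xist was checked first, since its induction tests the labels. Its level was 75.8 and 47.3 CPM in the ES d0 libraries, 7086 and 8345 CPM at NPC d3, and 10925 and 13370 CPM at NPC d6. The 3 stages did not overlap, and NPC d6 exceeded ES d0 by 7.68 ± 0.37 on the log2 scale (adjusted p = 6.55e-07). At least 0.999 of the allelic Xist fragments were from the Dom allele in each NPC library. The gene lies at chrX:103460372-103483233 on the minus strand of mm10, and since counting was stranded, its antisense partner Tsix was counted apart. Tsix, which restrains Xist in ES cells, was 431 and 362 CPM at ES d0 and 138 and 128 CPM at NPC d6, a fall by 1.52 ± 0.22 on the log2 scale (adjusted p = 0.000268). The degron acts on protein, so the RNA of Pcgf3 and Pcgf5 checks nothing about depletion.

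The comparison of NPC d6 with ES d0 asks how far the chromatin transcriptome had moved by the last stage. Of the naive pluripotency genes 19 of 20 fell, while 7 of 15 formative genes, 9 of 15 tested neural progenitor genes, 7 of 9 tested endoderm genes and 7 of 12 tested fibroblast genes rose. Of 15654 genes tested, 3058 rose (19.5%) and 2821 fell (18.0%), and 3259 of the called genes changed more than 2-fold. The median log2 fold change over all genes was 0.02. Each list below is to be read against those shares. Fold changes compare shares of RNA, and fewer cells of a type cannot be told apart from less RNA per cell.

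Of 20 naive pluripotency genes, all tested, 19 fell and none rose, with a median log2 fold change of -2.28. The count was 19 whichever single library was left out. Zfp42, which encodes the naive marker REX1, was 1019 and 722 CPM at ES d0, 217 and 196 CPM at NPC d3, and 81.4 and 67.3 CPM at NPC d6. Tbx3, a transcription factor of the LIF-dependent network, was 77.1 and 46.1 CPM at ES d0 and 3.66 and 6.10 CPM at NPC d6 (log2 fold change -3.64 ± 0.46, adjusted p = 0.000109). These are falls without overlap between stages, and for Tbx3 most of it was in place at NPC d3, at 4.81 and 4.63 CPM. Esrrb, a nuclear receptor that sustains self-renewal, was 502 and 528 CPM at ES d0 and 195 and 170 CPM at NPC d6 (-1.44 ± 0.16), a smaller relative fall than that of Zfp42 or Tbx3. Nanog was 69.7 and 53.7 CPM at ES d0 and 14.3 and 13.4 CPM at NPC d6. Sox15 was the member that did not pass, at 3.66 and 4.60 CPM against 1.45 and 2.61 CPM (adjusted p = 0.0886).

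The core pluripotency genes, which naive and primed cells share, moved in both directions, with a median log2 fold change of -0.28. Of 9 tested, 2 rose, 4 fell and 3 did not pass. Pou5f1, which encodes OCT4, was 75.5 and 55.9 CPM at ES d0, 56.7 and 57.0 CPM at NPC d3, and 49.8 and 54.3 CPM at NPC d6 (log2 fold change -0.28 ± 0.21, adjusted p = 0.312). Its NPC d6 libraries lay just under the lower of the ES d0 libraries. Lin28a, an RNA-binding protein that blocks let-7 maturation, rose from 26.5 and 22.7 CPM to 110 and 90.3 CPM (2.08 ± 0.22, adjusted p = 3.01e-05). Trim71, a let-7 target itself, rose by 0.90 ± 0.15. Dppa2 fell by 1.97 ± 0.35, from 46.5 and 30.2 CPM to 10.3 and 8.60 CPM. Utf1 was the least changed, at -0.09 ± 0.45. Sox2 could not be read: it was at 0 fragments in every library of the series and lies inside Sox2ot on the same strand in the annotation. Sox1, inside Gm5607, was likewise at 0 throughout, so neither absence says anything about these cells.

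Of 15 formative and epiblast genes, 7 rose, none fell and 8 did not pass (median 0.85), and 4 rose with all 58 libraries in the fit. Fgf5, the classical marker of post-implantation epiblast, was 3.35 and 4.01 CPM at ES d0, 34.6 and 34.3 CPM at NPC d3, and 28.6 and 27.8 CPM at NPC d6. Dnmt3b, a de novo DNA methyltransferase, was 158 and 146 CPM, then 886 and 921 CPM, then 405 and 554 CPM. For both, the NPC d3 libraries were the highest and all NPC libraries lay above ES d0. The log2 fold changes at NPC d6 were 2.99 ± 0.58 for Fgf5 (adjusted p = 0.00184) and 1.72 ± 0.29 for Dnmt3b (adjusted p = 0.000712). Pou3f1, a POU factor of the epiblast and early neural plate, went from 2.23 and 1.52 CPM to 6.93 and 8.93 CPM. Zic5 (0.16) and Otx2 (-0.34) did not pass.

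**Figure D1:**
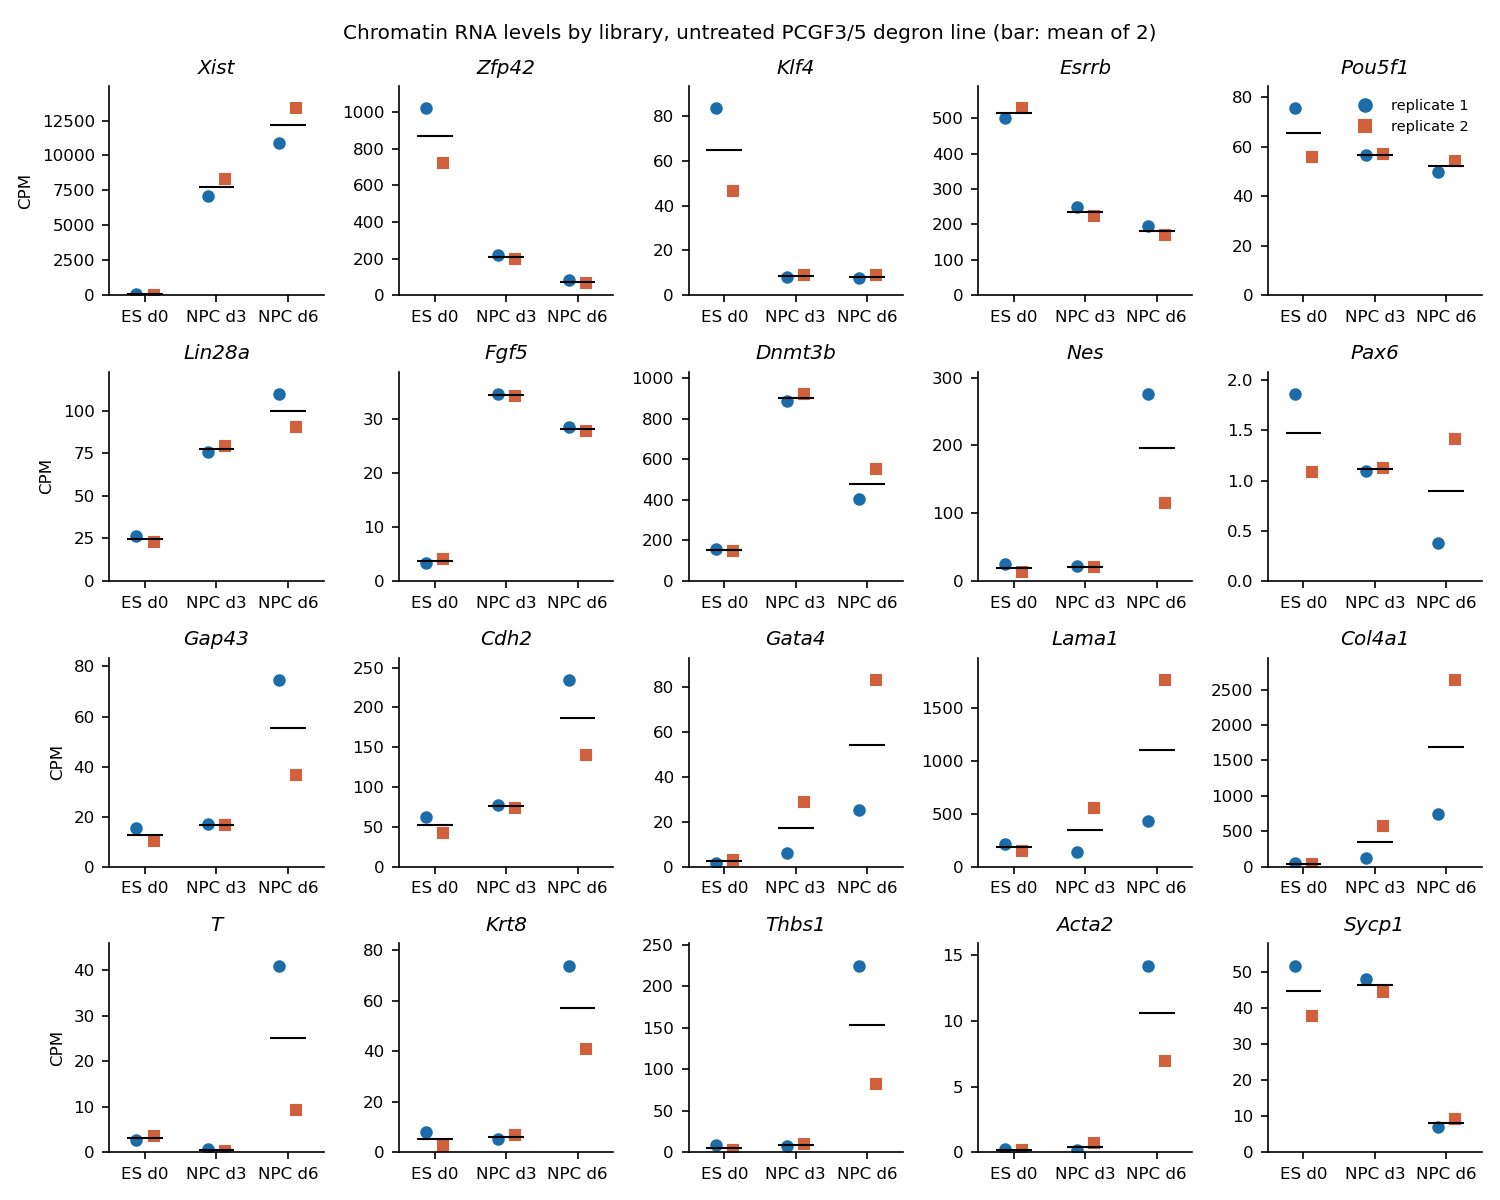
Levels of 20 genes in CPM (vertical axis, linear from 0, own scale in each panel) in the 6 libraries; points are replicate 1, squares replicate 2 and bars the mean of 2. Zfp42, Klf4 and Esrrb are low in all NPC libraries, Pou5f1 is at 49.8 CPM or more throughout, Fgf5 and Dnmt3b are highest at NPC d3, and Nes, Krt8, Thbs1 and T are higher in replicate 1 than replicate 2 at NPC d6 while Gata4, Lama1 and Col4a1 are higher in replicate 2.

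The label NPC, which names days under the authors' differentiation conditions, was checked against neural markers. In their protocol, growth in suspension with growth factors and the outgrowth of NPCs come after the last stage sampled here. Of 24 neural progenitor genes, 15 passed the count filter, of which 9 rose, 1 fell and 5 did not pass. Nes, the intermediate filament nestin, was 25.4 and 12.8 CPM at ES d0, 22.0 and 19.9 CPM at NPC d3, and 276 and 115 CPM at NPC d6 (3.39 ± 0.63, adjusted p = 0.00136). Cdh2, N-cadherin, was 61.8 and 42.1 CPM at ES d0 and 235 and 140 CPM at NPC d6, and Vim rose by 2.02 ± 0.37. Sox3, Sox9, Prom1, Zbtb16, Gli3 and Ncan also rose, Sox3 and Sox9 from under 0.17 CPM to no more than 1.20 CPM. Ptprz1 fell by 0.61 ± 0.20. With single libraries left out, the call of Sox3 was lost without ES d0 replicate 1 or NPC d6 replicate 2, that of Sox9 without either ES d0 replicate or NPC d6 replicate 1, that of Prom1 without ES d0 replicate 1, and that of Ptprz1 without ES d0 replicate 2 or either NPC d6 replicate. Several genes that rose, such as Nes, Vim and Cdh2, are also expressed in mesenchymal cells.

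Of the neural precursor markers given as background, Sox1, Pax6, Nes and Hes5, all but Nes were low or unreadable. Pax6, the neuroectodermal transcription factor, was 1.86 and 1.08 CPM at ES d0, 1.10 and 1.13 CPM at NPC d3, and 0.378 and 1.42 CPM at NPC d6, with overlapping groups. Hes5, Fabp7, Zic1, Hes3, Pou3f2, Pou3f3, Lhx2, Nr2f1 and Sox1 were below the count filter and were not tested. Hes5 had 2 and 1 fragments at NPC d6, and Pou3f2 had 0 in both libraries. No member of the 10-gene forebrain list reached the filter, so its 3 stages cannot be compared at this depth. Of 8 tested midbrain and hindbrain genes, Fgf8 rose (2.89 ± 0.51, from 0.434 and 0.433 CPM to 4.60 and 1.52 CPM), while Gbx2, Pax2 and En2 fell, each from 2.3 CPM or less. The call of Gbx2 was lost without ES d0 replicate 1 and that of En2 without NPC d6 replicate 1. The libraries are therefore called by their label, NPC d6, without taking it as a cell type.

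Among 14 tested neuron genes, 7 rose and 2 fell. Gap43, a growth-cone protein, was 15.6 and 10.1 CPM at ES d0 and 74.6 and 36.5 CPM at NPC d6. Syt1 and Snap25, of the synaptic vesicle machinery, rose by 1.27 ± 0.23 and 1.50 ± 0.55. Elavl4 and Ncam1 fell, and Tubb3, Map2 and Dcx did not pass at NPC d6. The proneural genes Neurog1 and Neurog2 were below the filter. Without ES d0 replicate 1, or without NPC d6 replicate 2, 4 neuron genes rose, and the calls of Snap25 and Ncam1 were among those lost. The count was 4 to 5 over all single libraries left out, and 2 with all 58 libraries in the fit. The call of Neurod1 was lost in each of these fits, and those of Gap43 and Syt1 with all 58 libraries. Of 5 glial genes tested, Pdgfra rose, from 1.61 and 2.17 CPM to 11.4 and 42.5 CPM, and its call was lost without NPC d6 replicate 2. Aldh1l1, an astrocyte enzyme, was the least changed at 0.09, and Sox10 was at -0.69 ± 0.64 without passing.

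Genes of other germ layers rose in the same libraries. Of 9 endoderm genes tested, 7 rose and none fell, with a median log2 fold change of 2.68. Gata4, a transcription factor of primitive endoderm and heart, was 1.49 and 3.19 CPM at ES d0, 5.97 and 28.8 CPM at NPC d3, and 25.5 and 83.3 CPM at NPC d6 (4.60 ± 0.95, adjusted p = 0.00265). Lama1, a laminin chain of basement membranes made abundantly by parietal endoderm, was 212 and 151 CPM, then 135 and 555 CPM, then 432 and 1768 CPM. Both genes were higher in replicate 2 at NPC d3 and NPC d6. Gata6 rose by 4.63 ± 1.09, Sox17 by 3.60 ± 0.85, Dab2 by 2.19 ± 0.51 and Cubn by 1.64 ± 0.45. Foxa2 had 0 fragments in both ES d0 libraries and 34 in the NPC d6 libraries together, which makes it at least 8.65-fold higher when 3 fragments per library are set as the floor; with Foxa2 at that bound the median of the list stayed at 2.68. Without NPC d6 replicate 2, 3 endoderm genes rose. The call of Lama1 was also lost without either ES d0 replicate and that of Cubn without ES d0 replicate 2. Cxcr4 and Sox7 did not pass.

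Of 5 mesoderm genes tested, T (Brachyury, of the primitive streak) rose and Mesp2 and Eomes fell. T was 2.73 and 3.52 CPM at ES d0, 0.670 and 0.376 CPM at NPC d3, and 41.0 and 9.36 CPM at NPC d6. Both NPC d6 libraries were above all others, 1 of them far above, and the call (3.06 ± 0.85, adjusted p = 0.0143) was lost without either ES d0 replicate or without NPC d6 replicate 1. The call of Eomes was lost whichever of these 4 libraries was left out, and that of Mesp2 without NPC d6 replicate 1. Mesp2 was at 28 fragments over the ES d0 libraries and 2 over the NPC d6 libraries, a ratio of 10.1 with an exact 95% counting interval of 2.56 to 87.8. Of 8 tested surface ectoderm and epithelial genes, 4 rose and 1 fell. Krt8 and Krt18, paired keratins of simple epithelia, were 8.25 and 2.60 CPM and 6.95 and 5.36 CPM at ES d0, and 73.8 and 40.7 CPM and 59.3 and 29.5 CPM at NPC d6. Cdh1, E-cadherin, also rose, from 187 and 183 CPM to 379 and 369 CPM, whereas Epcam did not pass (0.04 ± 0.16). Tfap2c fell by 1.40 ± 0.31. Of 8 neural crest genes tested, Ets1 rose from 3.29 and 4.01 CPM to 56.2 and 33.0 CPM (3.66 ± 0.34) and Snai2 and Sox8 fell, Snai2 from 25 fragments in all to 3. The call of Snai2 was lost in DESeq2, without the count filter, and without ES d0 replicate 1 or either NPC d6 replicate, and that of Sox8 in DESeq2 and without ES d0 replicate 2 or either NPC d6 replicate.

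The fibroblast list was fixed to watch for feeder cells. Of 12 genes tested, 7 rose and 1 fell. The summed level of the list was 12.3 and 11.5 CPM at ES d0, 25.8 and 29.4 CPM at NPC d3, and 121 and 48.2 CPM at NPC d6. Acta2, smooth-muscle actin, was 0.248 and 0.162 CPM at ES d0, 0.183 and 0.689 CPM at NPC d3, and 14.2 and 6.97 CPM at NPC d6. Tagln went from 0.868 and 1.03 CPM to 32.6 and 15.2 CPM, and Col1a1 from 1.05 and 0.271 CPM to 14.0 and 5.66 CPM. Fap, Col1a2, Twist2 and Dcn also rose, Thy1 fell, and Lum and Postn were below the filter. The call of Thy1 was lost without either ES d0 replicate or NPC d6 replicate 1, that of Col1a1 without ES d0 replicate 2 or NPC d6 replicate 1, and that of Col1a2 without NPC d6 replicate 1. Pdgfrb, a defining pericyte and fibroblast receptor, was 2.61 and 3.79 CPM at ES d0 and 4.41 and 0.544 CPM at NPC d6. The part that residual fibroblasts have in these rises was not tested.

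**Figure D2:**
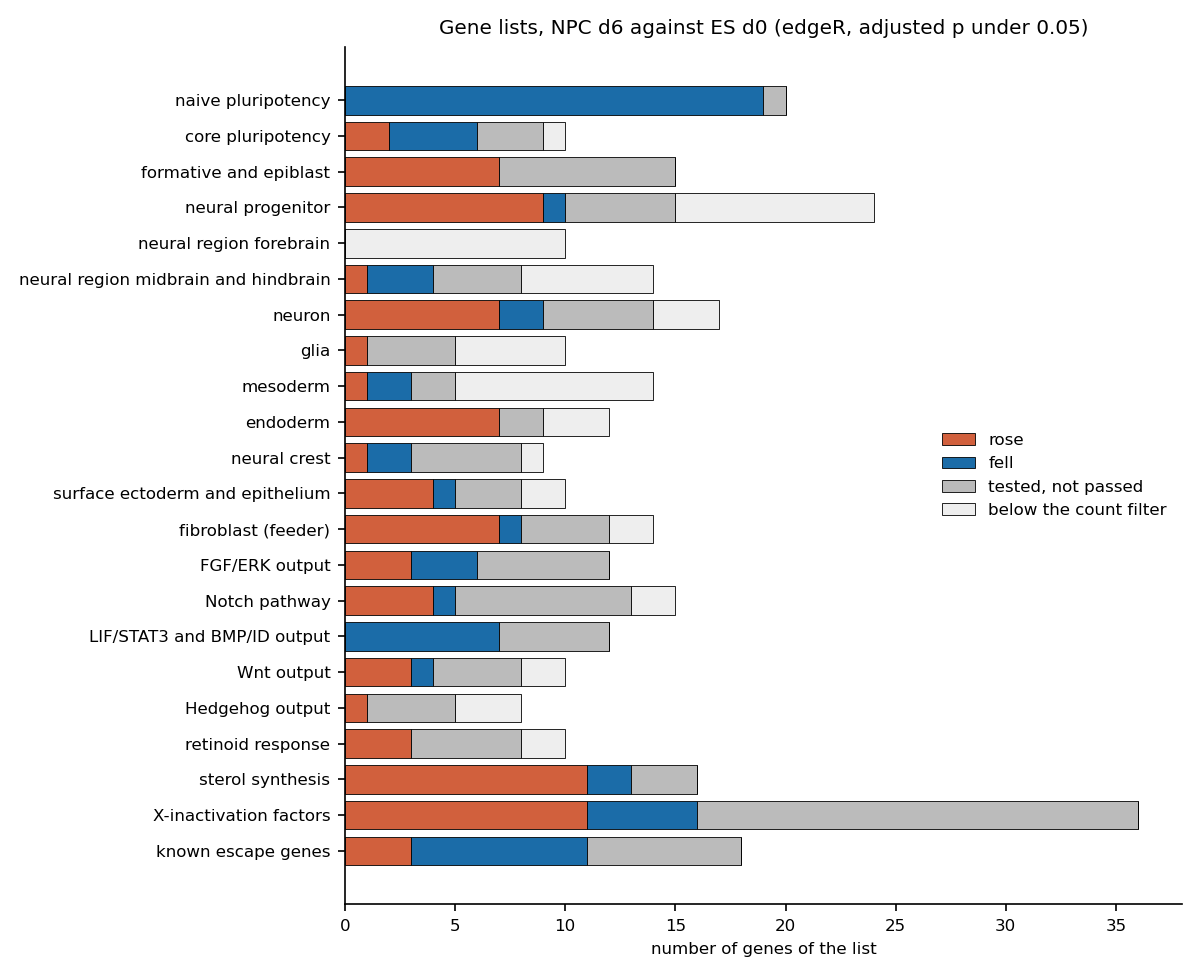
Genes of each list at NPC d6 against ES d0, as the number (horizontal axis) that rose, fell, were tested without passing, or were below the count filter, with edgeR and an adjusted p under 0.05. Naive pluripotency shows 19 falls of 20, endoderm 7 rises of 12 listed, and the forebrain list has no tested gene.

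LIF and serum were withdrawn in the protocol, and known targets of the pathways they feed were listed. Of 12 LIF/STAT3 and BMP/ID genes, 7 fell and none rose. Socs3, the feedback inhibitor that STAT3 induces, was 30.3 and 30.5 CPM at ES d0, 2.44 and 1.94 CPM at NPC d3, and 4.16 and 2.83 CPM at NPC d6 (-3.04 ± 0.35, adjusted p = 5.3e-05). Bcl3, also a STAT3 target, was 10.5 and 9.10 CPM and then stayed between 0.630 and 0.762 CPM. Id1 and Id3, BMP-responsive inhibitors of bHLH factors, fell by 1.77 ± 0.34 and 2.32 ± 0.51. The receptor gene Lifr did not pass (0.02 ± 0.21), while Il6st, its signalling partner gp130, fell by 0.91.

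Of 12 FGF/ERK output genes, 3 rose and 3 fell. Spred2 rose from 182 and 222 CPM to 429 and 379 CPM, and Spred1 and Dusp6 also rose. Spry4 and Etv5 fell, as did Fos. Fos was 13.4 and 85.1 CPM at ES d0 and 6.11 and 4.46 CPM at NPC d6, and its fall of 3.12 ± 0.81 was -1.31 without ES d0 replicate 2. It did not pass without that library or without either NPC d6 replicate. Without NPC d6 replicate 1, 1 gene of this list rose and 1 fell, the calls of Dusp6, Spred1, Spry4 and Fos being lost. Of 8 Wnt output genes, Axin2, Nkd1 and Lgr5 rose and the feedback inhibitor Notum fell, and the call of Notum was lost without ES d0 replicate 1 or either NPC d6 replicate. Axin2, the most general Wnt target, was 13 and 13.8 CPM at ES d0 and 23.9 and 19.9 CPM at NPC d6. Of 5 Hedgehog output genes, Foxa2 alone rose, and Gli1 and Ptch1 did not pass. Of 8 retinoid response genes, Stra6, Crabp2 and Meis2 rose, Rarb was at 0.14, and none rose without NPC d6 replicate 2 while 1 rose without either ES d0 replicate.

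Of 13 Notch pathway genes tested, Notch2, Notch3, Dll3 and Lfng rose, Jag1 fell and 8 did not pass. Notch2 was 103 and 106 CPM at ES d0, 144 and 140 CPM at NPC d3, and 219 and 189 CPM at NPC d6 (1.02 ± 0.10, adjusted p = 2.54e-05). Notch3 was 23.5 and 27.2 CPM, then 70.4 and 68.0 CPM, then 105 and 72.5 CPM. The ligand Dll3 went from 1.05 and 1.25 CPM to 4.73 and 5.01 CPM, and Lfng, a glycosyltransferase that tunes receptor choice, from 1.43 and 1.62 CPM to 3.53 and 4.03 CPM. Of the targets, Hes1 was 6.45 and 6.66 CPM at ES d0 and 7.25 and 5.33 CPM at NPC d6 (0.01 ± 0.39), Hey2 was at -0.13 without passing, and Hes5 was at 0 to 2 fragments in each library.

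Of 16 sterol synthesis genes tested, 12 rose and none fell at NPC d3, 11 rose and 2 fell at NPC d6, and 10 rose at both; both comparisons share the ES d0 libraries. Hmgcs1, which makes the HMG-CoA that enters the mevalonate pathway, was 97.1 and 110 CPM at ES d0, 208 and 181 CPM at NPC d3, and 284 and 221 CPM at NPC d6 (1.34 ± 0.15, adjusted p = 5.17e-05). Insig1, the sterol-sensing brake on this pathway, moved the other way, from 130 and 158 CPM to 45.4 and 46.2 CPM (-1.59 ± 0.29), as did Idi1 (-0.83 ± 0.23). Without ES d0 replicate 1 or NPC d6 replicate 1, 7 genes of the list rose, and 5 with all 58 libraries in the fit. The call of Idi1 was lost without ES d0 replicate 1 or either NPC d6 replicate.

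Promoters of genes in the Notch and sterol lists were read for the motif of the pathway's transcription factor, over 250 bases before to 50 bases after the annotated start (RefSeq sequence, GRCm38.p6). GTGGGAA, the core bound by the Notch effector RBPJ, was searched on both strands and was present in 6.38% of 32851 promoters and in 3 of the 12 Notch-list genes that had a promoter sequence, Lfng, Hes5 and Hey2. TCACNCCAC, a sterol regulatory element bound by SREBP factors, was in 1.24% of promoters and in 1 of 8 sterol-list genes with a sequence, Hmgcs1. The 3 promoters below show a Notch-list gene that rose, the neural Notch target that stayed near 0, and the sterol gene named above, with the motif in capitals on whichever strand it lies. Lfng is at chr5:140607091-140607390, Hes5 at chr4:154960673-154960972 and Hmgcs1 at chr13:119690101-119690400, all on the plus strand. A match describes the letters only.
Lfng: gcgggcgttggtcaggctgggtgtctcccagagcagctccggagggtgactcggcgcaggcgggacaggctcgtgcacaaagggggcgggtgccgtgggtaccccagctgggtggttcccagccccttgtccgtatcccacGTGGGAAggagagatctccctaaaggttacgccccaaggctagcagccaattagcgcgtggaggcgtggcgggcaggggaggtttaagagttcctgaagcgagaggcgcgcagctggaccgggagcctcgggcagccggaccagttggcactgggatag
Hes5: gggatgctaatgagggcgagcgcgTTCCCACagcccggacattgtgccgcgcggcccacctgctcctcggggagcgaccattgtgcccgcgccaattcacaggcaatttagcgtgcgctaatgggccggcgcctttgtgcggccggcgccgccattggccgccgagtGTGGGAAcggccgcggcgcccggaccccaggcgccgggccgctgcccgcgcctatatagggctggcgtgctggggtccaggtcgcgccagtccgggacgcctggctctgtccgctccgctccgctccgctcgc
Hmgcs1: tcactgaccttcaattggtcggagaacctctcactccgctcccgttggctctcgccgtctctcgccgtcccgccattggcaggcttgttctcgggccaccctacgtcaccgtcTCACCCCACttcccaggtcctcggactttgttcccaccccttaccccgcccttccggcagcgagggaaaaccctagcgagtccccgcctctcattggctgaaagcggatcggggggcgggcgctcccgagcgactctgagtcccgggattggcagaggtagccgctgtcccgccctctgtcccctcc

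By size of change, Xist headed the 10 genes that rose most at NPC d6. Kynu, of tryptophan catabolism, went from 0.124 and 0.162 CPM to 29.8 and 11.4 CPM. Pcdh7, a protocadherin, was 3.04 and 0.974 CPM at ES d0, 16.4 and 16 CPM at NPC d3, and 357 and 135 CPM at NPC d6. Tnc, tenascin C, rose by 6.43 ± 1.02, and Fam155a, of a sodium leak channel complex, by 5.39 ± 0.56. Col4a1 and Col4a2, the basement-membrane collagen pair that shares a promoter region, rose together, Col4a1 from 48.4 and 37.7 CPM to 746 and 2638 CPM and Col4a2 from 25.7 and 23.4 CPM to 417 and 1388 CPM. Slc22a3, a cation transporter, had 2 fragments at ES d0 and 175 at NPC d6, a ratio of 121 with a counting interval of 33.0 to 1006. Acta2 and Tgfb1i1 completed the 10.

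The genes that fell most were expressed at under 20 CPM in ES cells. Pramel7, which supports the naive state, had 349 fragments at ES d0 and 0 at NPC d6, at least 40.4-fold lower at the floor of 3 fragments per library. Pramel6, a related family member, had 231 fragments at ES d0 and 1 at NPC d6 (ratio 167, counting interval 29.7 to 6636). Reads that fitted several places were dropped in alignment, so counts of such near-identical family members may be too low. Mep1b, Atp4b and Clca3 were down to 3 fragments each, with ratios of 80.6, 67.8 and 54.8 and lower counting limits of 27.4, 23.0 and 18.5. Trpm1 went from 14.1 and 19.9 CPM to 0.630 and 0.871 CPM, and AU015836 from 18.2 and 12.1 CPM to 0.567 and 0.653 CPM. Sp110, Fcgr2b and Mylpf fell by 5.08, 4.71 and 4.57.

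NPC d3 against ES d0 divides this course. At the midpoint 2204 genes had risen (14.1%) and 2139 had fallen (13.7%). Of the 5879 genes called at NPC d6, 3179 were called in the same direction at NPC d3; the comparisons share the ES d0 libraries, so this count is a description. The naive loss was nearly complete in number, with 18 of 20 down and a median of -1.99, and the formative list had 8 rises. The LIF/STAT3 and BMP/ID list had 9 falls of 12. In contrast the neural progenitor list had 2 rises of 15, endoderm 3 of 9, the fibroblast list 3 of 12 and surface ectoderm 2 of 8. Core pluripotency had 2 rises and 1 fall, midbrain and hindbrain 2 falls, neurons 5 rises, glia 1 rise and 1 fall, mesoderm 2 falls, and neural crest 1 of each. FGF/ERK had 1 rise and 3 falls, Notch 3 and 2, Wnt 5 rises, Hedgehog 2 and retinoid 1.

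After Xist, the largest rises at NPC d3 were Slc22a3, Enpp2, Tnc and Spon1. Enpp2, autotaxin, was 2.48 and 1.84 CPM at ES d0, 75.8 and 83.7 CPM at NPC d3 and 48.0 and 89.6 CPM at NPC d6, and Spon1, a secreted matrix protein, went from 1.55 and 2.65 CPM to 41.8 and 44.9 CPM. The largest falls were Pramel6, Pramel7, AU015836, Fosb and Fos. Fosb and Fos, immediate early genes, differed several-fold between the ES d0 replicates (Fosb 3.85 and 12.9 CPM) and were at 0.183 and 0.125 CPM and 1.95 and 1.94 CPM at NPC d3, below both.

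NPC d6 against NPC d3 isolates what came later, without a change in doxycycline or medium. Of the same genes, 721 rose (4.61%) and 510 fell (3.26%). Of the 721, 528 had not been called at NPC d3 against ES d0, 112 had risen before and 81 had fallen before. The 5 largest rises were in T, Synpo2l, Acta2, Tagln and Thbs1. T rose by 5.52 ± 1.05 from its low at NPC d3. Synpo2l rose by 5.29 ± 0.79, Acta2 by 4.55 ± 0.65, Tagln by 4.08 ± 0.46 and Thbs1, thrombospondin 1, by 4.05 ± 0.78, Thbs1 from 7.98 and 9.89 CPM to 225 and 82.2 CPM. The calls of T and Thbs1 in this comparison were lost without NPC d6 replicate 1 and without either NPC d3 replicate, and that of Acta2 without NPC d3 replicate 1. With all 58 libraries in the fit, the calls of Acta2, Tagln and Thbs1 were lost.

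The 5 largest falls after NPC d3 were in Sycp1, Smc1b, Ccdc172, Nlrp4f and Usp26. Sycp1, of the synaptonemal complex, was 51.7 and 37.8 CPM at ES d0, 47.9 and 44.6 CPM at NPC d3, and 7.06 and 9.36 CPM at NPC d6 (-2.55 ± 0.26, adjusted p = 0.000403). Smc1b, the meiotic cohesin subunit, was 117 and 134 CPM, then 89.3 and 91.7 CPM, then 19 and 13.9 CPM (-2.49 ± 0.16, adjusted p = 2.51e-05). Ccdc172 was 28.5 and 29.4 CPM at NPC d3 and 5.23 and 6.31 CPM at NPC d6, and Nlrp4f, of an oocyte gene family, 71.9 and 61.3 CPM and then 14.7 and 15.6 CPM. In all 4, ES d0 against NPC d3 did not pass. Usp26, an X-linked testis gene, had already fallen by NPC d3, from 261 and 341 CPM to 113 and 101 CPM, and reached 19.2 CPM in both NPC d6 libraries.

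Among the lists, later rises were in neural progenitor (3: Nes, Vim and Ncan), surface ectoderm (3), fibroblast (3), neuron (2), and 1 each in mesoderm, neural crest, Notch and the midbrain and hindbrain list, while no formative, sterol, Wnt, Hedgehog, retinoid, glial or LIF/STAT3 and BMP/ID gene was called. The calls of Nes and Vim were lost without either NPC d3 replicate, without NPC d6 replicate 1 and with all 58 libraries. That of Ncan was lost whichever NPC d3 or NPC d6 library was left out, with all 58 libraries and with the replicate number as a block. Naive genes fell further in 3 cases, and core pluripotency, neuron and FGF/ERK genes in 1 each. Of 9 endoderm genes none passed, with a median of 1.47. With the replicate number as a block, 3 of 8 endoderm genes rose, Gata4, Gata6 and Dab2. In that fit 4 formative, 3 Wnt and 1 sterol gene also fell, and 1 formative and 1 glial gene rose. This comparison was the most fragile to single libraries: the number called fell from 1231 to 109 without NPC d3 replicate 1, 193 without NPC d6 replicate 1, 474 without NPC d3 replicate 2 and 671 without NPC d6 replicate 2.

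The replicates of NPC d3 and NPC d6 differed in a gene-specific way. Among endoderm genes at 5 CPM or more, 5 of 5 were higher in replicate 2 at NPC d3 and 6 of 6 at NPC d6, and none of 3 at ES d0. Col4a1 was 121 and 574 CPM at NPC d3 and 746 and 2638 CPM at NPC d6. In the other direction at NPC d6, replicate 1 was higher for T, Nes, Acta2, Thbs1 and Col1a2 (30.6 and 7.73 CPM). Over all genes at 5 CPM or more, 86 were over 1 log2 unit higher in replicate 2 and 102 in replicate 1 at NPC d6. The counts were 37 and 0 at NPC d3 and 180 and 128 at ES d0, the stage whose replicates differed most over all genes. The other NPC d6 libraries of the series were those of this line with dTAG-13, of the parental line and of mutant lines. They varied over a similar range: Gata4 from 4.01 to 108 CPM, Nes from 7.50 to 227 CPM, Thbs1 from 2.13 to 267 CPM and Krt8 from 1.28 to 135 CPM. Zfp42 in those libraries lay between 80.7 and 433 CPM, so the 81.4 and 67.3 CPM here were at or under its lower end, and Pax6 between 0.804 and 10.5 CPM.

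X silencing was measured by the allelic ratio, Dom fragments over Dom plus Cast fragments, in the X-linked genes of the deposited ratio table, of which 232 had enough allelic fragments to be tested and 14 had not. All lie on the side of the X that precedes Xist in coordinates. A ratio near 0.5 means equal output, and 0 means that only the Cast allele was read. The median ratio was 0.509 and 0.511 at ES d0, 0.184 and 0.190 at NPC d3, and 0.0649 and 0.0833 at NPC d6. The stages did not overlap, with a change in the mean of the medians of -0.436 from ES d0 to NPC d6, of which -0.323 came by NPC d3 and -0.113 after. With 2 libraries against 2, the exact two-sided permutation p is 0.333, the smallest this design allows. Median allelic coverage of these genes was 236.5 and 280.5 fragments at ES d0, 170 and 149 at NPC d3, and 130 and 70 at NPC d6, so single-gene ratios are least precise at NPC d6.

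**Figure D3:**
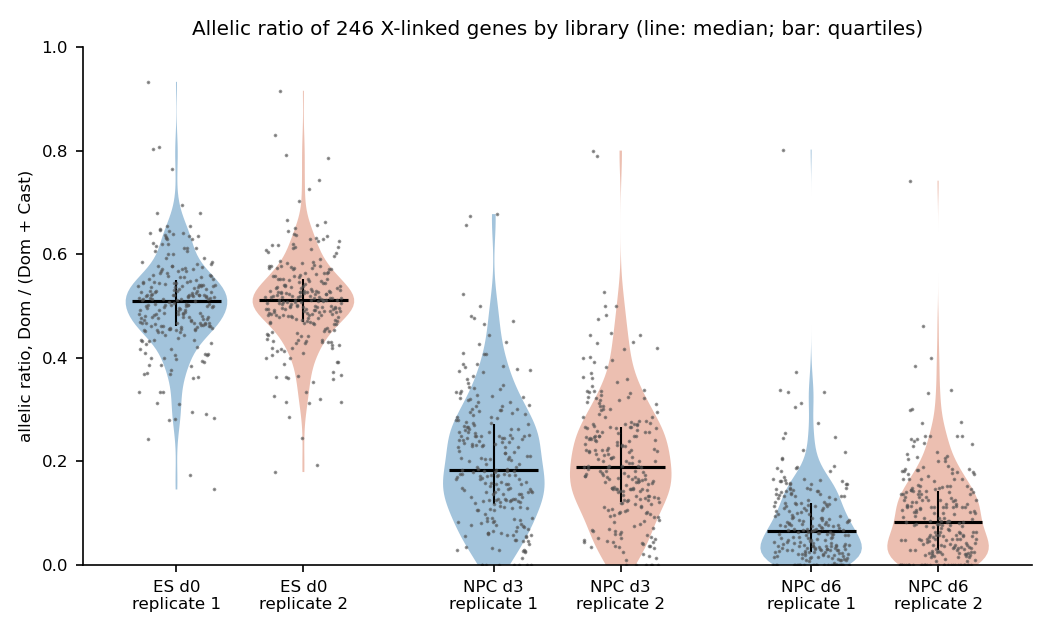
Allelic ratio, Dom over Dom plus Cast (vertical axis), of the X-linked genes of the deposited ratio table in each of the 6 libraries; dots are genes, shapes their density, horizontal lines medians and vertical bars quartiles. Medians step from 0.509 and 0.511 to 0.184 and 0.190 to 0.0649 and 0.0833, and the NPC d3 libraries are the most spread.

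In the test on allele counts of these 232 genes, from ES d0 to NPC d6, 226 fell, none rose and 6 did not pass, against 2.94% of 11706 genes off the X chromosome that fell by the same test. From ES d0 to NPC d3, 216 fell (2.05% off the X). From NPC d3 to NPC d6, 119 fell (0.863% off the X), and 225 of 232 had the lower direction; without NPC d6 replicate 1 that number was 50. Genes with a ratio under 0.1 numbered 0 at ES d0, 52 and 48 at NPC d3, and 165 and 135 at NPC d6. Those listed at a ratio of 0 numbered 31 and 34 at NPC d6, which at this coverage limits the ratio without setting it at 0.

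Genes kept different shares of their starting ratio. In 98 genes with at least 100 allelic fragments in each ES d0 and NPC d6 library, the median gene kept 39.2% of its ES d0 ratio at NPC d3 and 16.4% at NPC d6, with quartiles of 8.95 and 26.1% at NPC d6. At NPC d6, 28 genes kept under 10% and 4 kept over 50%. The median gene had 26.3% of its fall after NPC d3, and for 6 genes most of the fall came then. The order of genes was much the same at both stages, with a Spearman correlation of 0.925 across the 98 genes, which share the ES d0 libraries as denominator and are not independent replicates.

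The genes that kept least among the 98 were silenced early. Pcyt1b, of phosphatidylcholine synthesis, at chrX:93654862-93749948, had ratios of 0.521 and 0.522 at ES d0, 0.0489 and 0.0401 at NPC d3, and 0.00426 and 0 at NPC d6, on 235 and 123 allelic fragments at that stage. Phka1, a phosphorylase kinase subunit, had 0.517 and 0.505, then 0.0571 and 0.0923, then 0.0203 and 0.00985. Zfp280c, a zinc finger gene, had 0.619 and 0.614 at ES d0 and 0.0137 and 0.0233 at NPC d6. Mtap7d3, F8, the clotting factor VIII gene, and Dlg3, a synaptic scaffold, kept 2.78, 3.25 and 3.33%.

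Among the 98 genes, those that kept most were led by Kdm6a, the H3K27 demethylase UTX and a known escape gene, at chrX:18162666-18279358. Its ratio was 0.560 and 0.553 at ES d0, 0.482 and 0.475 at NPC d3, and 0.333 and 0.384 at NPC d6, a fall by 1.18 ± 0.08 on the log2 odds scale (adjusted p = 9.96e-14). It kept 64.5%, on 2109 or more allelic fragments per library. Eif2s3x, a translation initiation subunit, kept 53.5%, the ribosomal protein gene Rpl10 53.0%, Utp14a, of ribosome assembly, 51.6%, Atp6ap2, a proton pump subunit, 47.5%, and Taf1, of the general transcription factor TFIID, 41.1%. Each of them passed the test of a fall.

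The latest falls among the 98 genes were in Dkc1, Rbm3, Kdm6a, Taf1 and Otud5. Dkc1, the pseudouridine synthase of telomerase RNA and small nucleolar RNPs, had ratios of 0.360 and 0.321 at ES d0, 0.251 and 0.269 at NPC d3, and 0.115 and 0.0988 at NPC d6, so 65.7% of its fall came after NPC d3. Rbm3, a cold-inducible RNA-binding protein, had 0.520 and 0.519, then 0.389 and 0.402, then 0.161 and 0.205. Otud5, a deubiquitinase, had 51.1% of its fall after NPC d3.

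**Figure D4:**
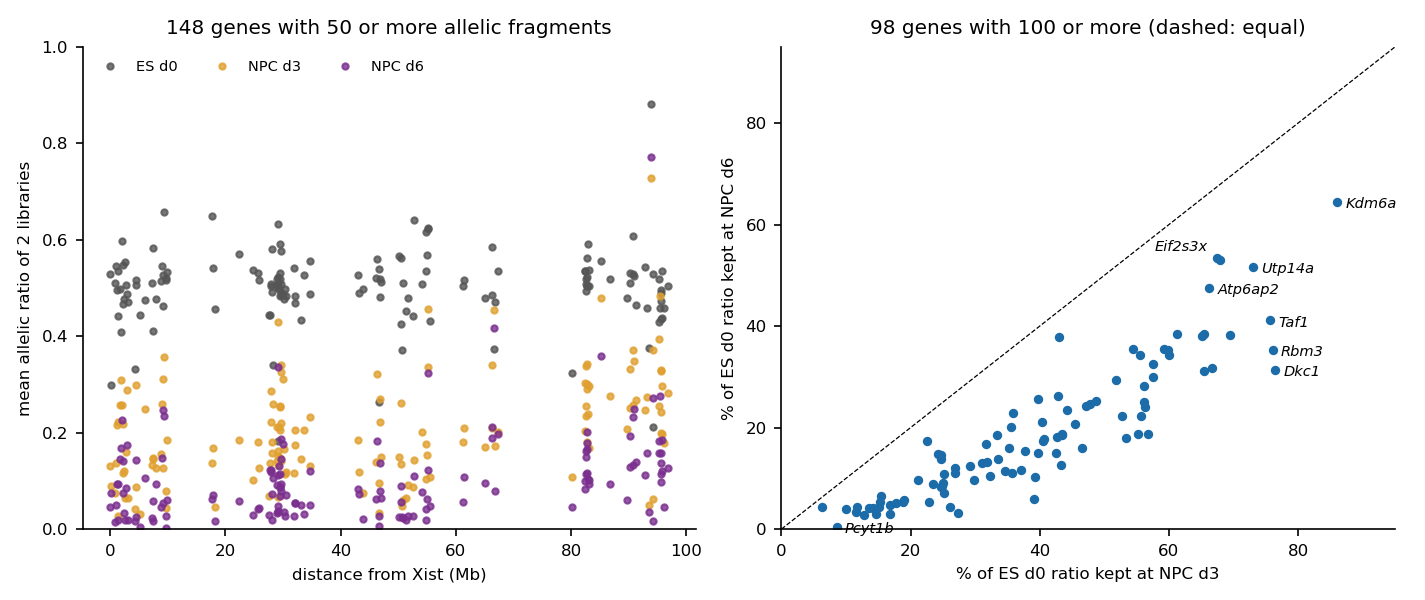
Left, mean allelic ratio of 2 libraries (vertical axis) against distance from Xist in Mb for 148 genes with at least 50 allelic fragments in all 6 libraries. Right, percent of the ES d0 ratio kept at NPC d6 (vertical axis) against that at NPC d3 for 98 genes with at least 100 fragments; nearly all lie below the dashed line of equality, Kdm6a is highest at 64.5% and Pcyt1b lowest at 0.408%.

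Known escape genes, which in other settings are read from the inactive X, also lost Dom output. All 9 in the ratio table fell by the test. Beside Kdm6a, Eif2s3x and Utp14a, Nkap kept 43.6%, the RNA helicase gene Ddx3x 38%, the O-GlcNAc transferase gene Ogt 29.3%, the Mediator subunit gene Med14 25.3%, Shroom4 25% and the deubiquitinase gene Usp9x 24.2%. For Ddx3x the ratio was 0.514 and 0.506 at ES d0, 0.343 and 0.322 at NPC d3, and 0.158 and 0.229 at NPC d6. All 9 lay above 16.4%, the median of the 98 genes, and above 14.7%, the median of all genes of the ratio table. In total RNA, 3 of 18 listed escape genes rose and 8 fell at NPC d6 (3 and 3 at NPC d3, 0 and 4 from NPC d3 to NPC d6). Those that rose were Jpx, Mid1 and Bgn, and the call of Bgn was lost when either ES d0 replicate or NPC d6 replicate 1 was left out, in DESeq2, with all 58 libraries and with only the 3 stages in the fit. The call of Jpx was lost without ES d0 replicate 2 and with all 58 libraries. Without NPC d6 replicate 1, 3 escape genes fell, without ES d0 replicate 1, 5, and without ES d0 replicate 2, 1 rose.

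The 6 genes that did not pass were Dynlt3, Slc25a5, Timp1, Mbnl3, Mir669m-2 and Nap1l2. The last 4 had as few as 4 to 10 allelic fragments in a library. Slc25a5, an ADP/ATP carrier at chrX:36795651-36798806, stayed at 0.387 and 0.360 at ES d0, 0.427 and 0.483 at NPC d3, and 0.373 and 0.462 at NPC d6. Dynlt3, a dynein light chain at chrX:9654269-9662983, was skewed to Dom already at ES d0, with ratios of 0.933 and 0.831, and had 0.802 and 0.742 at NPC d6. The total RNA of both fell all the same, Slc25a5 by 1.89 and Dynlt3 by 1.66 on the log2 scale.

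The loss was in the Dom allele. Summed over all genes of the ratio table, Dom fragments were 5146 and 5639 CPM at ES d0, 1430 and 1345 CPM at NPC d3, and 505 and 613 CPM at NPC d6, while Cast fragments were 4914 and 5468 CPM, 5386 and 5207 CPM, and 5361 and 4986 CPM. The Dom groups did not overlap and the Cast groups did. Gene by gene, with 0.1 CPM added, the Dom allele was lower at NPC d6 in every gene of the ratio table, with a median log2 change of -3.27 (quartiles -4.01 and -2.51). The Cast allele was lower in 123 and higher in 123, with quartiles of -0.43 and 0.46.

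**Figure D5:**
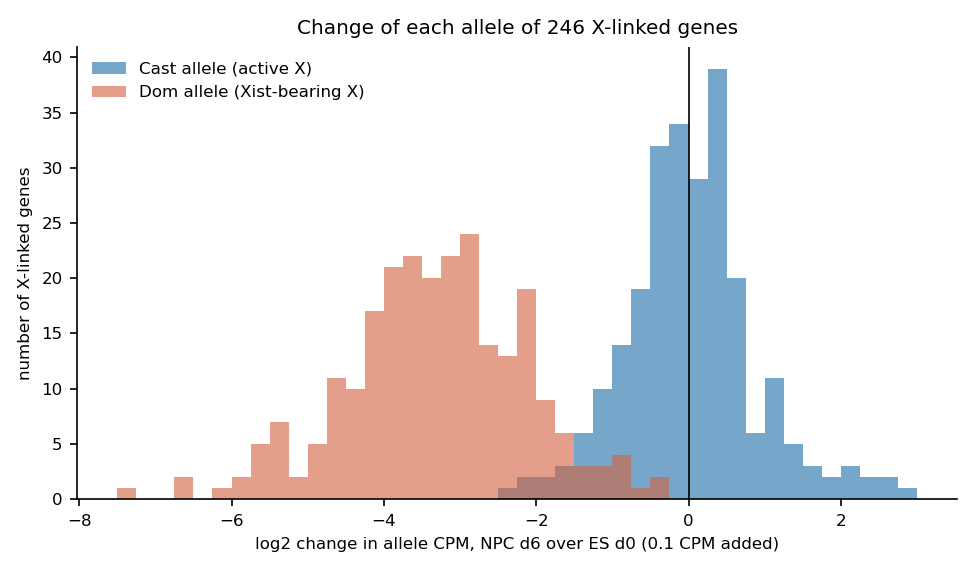
Log2 change in allele CPM from ES d0 to NPC d6 (horizontal axis, 0.1 CPM added) for the Dom and the Cast allele, as the number of X-linked genes of the ratio table in each bin (vertical axis). The Cast distribution is centred on 0, and the Dom distribution has a median of -3.27 with every gene below 0.

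Total RNA of these genes followed. Of all genes of the ratio table, 164 fell and 9 rose at NPC d6, with a median log2 fold change of -0.84 against 0.04 for autosomal genes, a difference of -0.88. The difference was -0.65 at NPC d3 and -0.28 from NPC d3 to NPC d6. X-linked genes beyond Xist in coordinates, which have no deposited ratio, were lower as well: of 226 tested, 126 fell and 18 rose, with a median of -0.92.

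The 9 X-linked genes whose total RNA rose did so while their Dom allele fell. Gpc4, a glypican, was 112 and 84.8 CPM at ES d0, 162 and 151 CPM at NPC d3, and 334 and 219 CPM at NPC d6, and its ratio went from 0.457 and 0.448 to 0.0193 and 0.0189. Its Dom fragments went from 20.9 and 14.9 CPM to 2.65 and 1.74 CPM and its Cast fragments from 24.9 and 18.4 CPM to 134 and 90.5 CPM. Flna, filamin A, had ratios of 0.519 and 0.500 at ES d0 and 0.0201 and 0.0777 at NPC d6, with totals of 794 and 205 CPM and then 2096 and 1503 CPM; its rise did not pass without ES d0 replicate 2 or without NPC d6 replicate 1. Pim2, a survival kinase, Gria3, an AMPA receptor subunit, and Heph, a copper oxidase, rose by 1.88, 1.88 and 1.57, with ratios at NPC d6 of 0.0833 or less. The rise of Pim2 did not pass without ES d0 replicate 1.

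Genes far from Xist kept more. In the 148 genes with at least 50 allelic fragments in all 6 libraries, the 37 genes within 20 Mb kept a median of 11.4% at NPC d6, the 64 genes at 20 to 60 Mb kept 12.8%, and the 47 genes at 60 to 100 Mb kept 27.5%. At NPC d3 the medians were 26.7, 32.1 and 53.3%. Across these genes the Spearman correlation of the share kept at NPC d6 was 0.357 with distance, 0.436 with ES d0 level in CPM per kb and -0.454 with gene length. Neighbouring genes share chromatin and all genes share the libraries, so these values describe the chromosome without a test, and the 3 properties were not separated.

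X-inactivation factors were measured in the same fit. Of 36 tested, 11 rose and 5 fell at NPC d6, 12 and 3 at NPC d3, and 1 and 1 from NPC d3 to NPC d6. Spen, whose protein recruits the corepressor NCoR, was 137 and 71.4 CPM at ES d0 and 162 and 137 CPM at NPC d6 and did not pass. Smchd1, needed for late silencing, was 323 and 383 CPM at ES d0, 463 and 476 CPM at NPC d3 and 458 and 468 CPM at NPC d6 (0.46 ± 0.11, adjusted p = 0.00622). Its call was lost without ES d0 replicate 1 or NPC d6 replicate 2, and with all 58 libraries in the fit. Pcgf3 was 92.7 and 93.9 CPM at ES d0 and 92.8 and 73.8 CPM at NPC d6, and Pcgf5 36.7 and 58.9 CPM and 62.3 and 92.8 CPM, neither passing. Rlim, the X-linked activator of Xist, fell by 1.45, and Jpx, a non-coding activator, rose by 1.14. Of the Polycomb genes, Mtf2 and Suz12 fell by 1.01 and 0.59. Jarid2 was 1744 and 1589 CPM at ES d0, 2386 and 3333 CPM at NPC d3, and 1577 and 6272 CPM at NPC d6, so its call (adjusted p = 0.0437) came with overlapping groups, and it was lost without either ES d0 replicate or NPC d6 replicate 2, with all 58 libraries and with only the 3 stages in the fit. Without either ES d0 replicate or without NPC d6 replicate 2, 7 factors rose.

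Off the X chromosome the allelic ratio changed in 660 of 11706 genes in either direction at NPC d6, in 592 at NPC d3 and in 152 between the NPC stages. Gpc5, a glypican at chr14:115092214-116525192, had Dom shares of 0.532 and 0.526 at ES d0, 0.927 and 0.923 at NPC d3, and 0.914 and 0.941 at NPC d6. Its Dom fragments rose from 3.60 and 3.25 CPM to 38.2 and 54.0 CPM while its Cast fragments stayed between 2.92 and 4.08 CPM. Triml1 and Triml2, neighbouring ES cell genes on chromosome 8, moved to Dom as they fell, Triml2 from 0.465 and 0.434 to 0.923 and 0.823. Pdgfd, a PDGF ligand on chromosome 9, moved towards Cast, from 0.824 and 0.863 to 0.514 and 0.509. Cmss1, at chr16:57301999-57606867, moved from 0.347 and 0.520 to 0.117 and 0.0523; it overlaps Filip1l on the opposite strand, whose level went from 14.1 and 646 CPM to 619 and 13790 CPM with a Dom share of 0.0513 or less in each library. Triml1 and Triml2 lie on a chromosome whose median Dom share was 0.347 to 0.357 in all 6 libraries, so their shift is one away from the chromosome's own skew.

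Finally, the course was set against that of the same line with PCGF3/5 degraded by dTAG-13, which shares no library with it. In expression no gene passed the test of a difference between the courses from ES d0 to NPC d6 (0%, smallest adjusted p = 0.0976 in edgeR), while 1203 genes (7.68%) had an unadjusted p under 0.05 and DESeq2 called 63, of which 6 were X-linked. With a block that pairs treated and untreated cultures of the same day and replicate number, which were grown side by side, 171 genes passed. In the allelic ratio, 111 of 232 X-linked genes fell more in the untreated cells and none fell less, against 0.0598% of genes off the X. The direction was the same in 227 of 232. Median ratios with dTAG-13 were 0.512 and 0.512 at ES d0, 0.307 and 0.333 at NPC d3, and 0.225 and 0.228 at NPC d6, each NPC value above both untreated libraries. Without NPC d6 replicate 1, 70 genes passed. Among the best covered, Zfp280c reached 0.0137 and 0.0233 untreated and 0.138 and 0.228 with dTAG-13, and Kdm6a 0.333 and 0.384 against 0.485 and 0.498. For Eif2s3x the difference of -0.56 on the log2 odds scale did not pass (adjusted p = 0.332). Xist itself was 8033 and 11367 CPM at NPC d6 with dTAG-13. The parental iXist-ChrX-Dom line without the degron had medians of 0.0833 and 0.0886 at NPC d6, beside the 0.0649 and 0.0833 here.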

How the data were processed

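ChrRNA-seq of 6 libraries (ES d0, NPC d3 and NPC d6, 2 each) was analysed within a series of 58. Whole-number fragment counts per gene, total and split by allele, were deposited by the authors, who removed ribosomal RNA reads with Bowtie2 2.3.2, aligned to mm10 with SNP positions masked by STAR 2.4.2a, split reads by SNPs and counted whole transcripts with introns and strand by featureCounts 1.5.2. Counting introns weights long genes, and the SNP density of a gene sets its allelic depth. The allelic fraction, Dom over Dom plus Cast, was also deposited for 246 X-linked genes that passed the authors' filters, and equals the ratio recomputed from the counts.

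edgeR 4.0.16 (R 4.3.3; quasi-likelihood, TMM, default low-count filter) was fitted to the 16 libraries of this line in 8 groups, so that spread was shared. This fit takes the libraries as independent. Differences between replicates recurred in several groups, most between untreated ES d0 and ES d1 (1 day of doxycycline in ES cells), with a correlation of 0.695. Allele counts were fitted likewise with an allele term per library, on genes with at least 10 allelic fragments in 80% of the libraries and a ratio between 0.1 and 0.9 before induction. limma 3.58.1, DESeq2 1.42.0, other filters and scalings, the block and leaving out each library were tried. The steps were tested on simulated data. P-values were Benjamini-Hochberg adjusted over all genes fitted, and single values had exact permutation tests (SciPy 1.17.1). Counting intervals are exact at 95% and, like the floor of 3 fragments, cover counting error only.

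The line, the gene lists and the tests were chosen with earlier results of these data known. Genes were named by rule: from each list those that moved most and least; from each stage comparison the largest changes each way, 10 for NPC d6 against ES d0 and 5 for the others, among genes with adjusted p under 0.05, at least 5 CPM in the higher group, groups that do not overlap and an informative symbol; X-linked genes with at least 100 allelic fragments that kept most, least or fell latest; X-linked genes that rose in total RNA; autosomal genes with the largest allelic change; and known escape genes. Other list members are named as examples, chosen after their values were seen. A few genes that the rule names are not reported here. Of 37 listed X-inactivation factors, 36 were in the count table.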

Additional observations from a re-analysis of the deposited data

Results flagged for a closer look

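A difference between groups under the same contrast was found in the allelic ratio. The fall from ES d0 to NPC d6 was larger in the untreated than in the dTAG-13 treated cells for 111 of 232 X-linked genes, by the edgeR test of the interaction, with 227 of 232 in that direction and a median difference of -1.82 on the log2 odds scale. The number was 70 without NPC d6 replicate 1 and 7 with limma on the ratios. Off the X chromosome, 16 of 11706 genes differed in either direction by the same test, of which 7 fell more in the untreated cells.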

How the results depend on the processing

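The number of genes called in expression kept within 1.5 times its value under every other filter, scaling and tool for NPC d6 against ES d0 and NPC d3 against ES d0. For NPC d6 against NPC d3 it was 1231, and 195 with all 58 libraries in the fit. Leaving out single libraries gave 3624 to 4345, 2203 to 2910 and 109 to 671 genes for the 3 comparisons; 3624 was without NPC d6 replicate 1 and 2203 without either NPC d3 replicate. The rises and falls at NPC d6 were 3058 and 2821 with TMM, 2883 and 3004 with RLE, and 2905 and 2988 with TMM from autosomal genes. The difference from the dTAG-13 course in expression was called in 0 genes, in 63 by DESeq2, in 1 without the count filter, and in 0 to 60 leaving out single libraries, 60 without dTAG-13 ES d0 replicate 1.

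X-linked genes that fell numbered 205 to 221, 193 to 204 and 50 to 102 for the 3 comparisons with single libraries left out, and 70 to 115 for the dTAG-13 difference. With limma on the ratios, NPC d6 against NPC d3 gave 36 and the dTAG-13 difference 7. The change in the median ratio was -0.412 and -0.302 from summed fragments for NPC d6 and NPC d3 against ES d0, and -0.445 to -0.426, -0.326 to -0.320 and -0.122 to -0.104 with single libraries left out. The X minus autosome difference in total RNA was then -0.91 to -0.83, -0.68 to -0.62 and -0.29 to -0.24. Pcgf3 was at 0.0059 without NPC d6 replicate 2 and Sox10 at 0.37 without ES d0 replicate 2, neither called, while Sox10 was at -1.28 without ES d0 replicate 1. The causes were not tested.

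No source states that a replicate number follows the same culture across the stages. The deposited column names of the NPC libraries do give the replicate number before the day, as for a course sampled on both days. Differences between replicates correlated at 0.0097 between ES d0 and NPC d6, 0.057 between ES d0 and NPC d3 and 0.186 between NPC d3 and NPC d6. With the replicate number as a block, 6122, 4830, 1432 and 0 genes were called in expression and 230, 217, 129 and 120 X-linked genes fell. Pcgf5 was then called at NPC d6 (0.78, adjusted p = 0.00257), Thy1, Jarid2 and Bgn were not, and 3 of 8 endoderm genes rose from NPC d3 to NPC d6. A block by day was added after seeing the data, since untreated and treated libraries of a day were grown side by side. Their replicate differences correlated at 0.204 to 0.397 at ES d0, NPC d3 and NPC d6, and at 0.683 at ES d1, which this fit left out. The block by day gave 171 and 130 for the dTAG-13 differences. Depth limits single allelic ratios most in NPC d6 replicate 2. Of the named genes' results in expression, 991 kept their side of the threshold, 51 lost it, 2 gained it and 2 turned without being called; in the allelic ratio 259 kept it and 1, Cmss1, lost it.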

Other observations

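Some chromosomes were away from equal allelic output before any Xist induction. The median Dom share of genes on chromosome 8 was 0.347 to 0.357 over the 6 libraries, on chromosome 12 it was 0.342 to 0.363, and on chromosome 11 it was 0.685 to 0.688, while the other 16 autosomes lay between 0.512 and 0.537. Chromosomes 8 and 12 had like shares at NPC d6 in the parental line (0.344 and 0.350). Chromosome 11 did not: it was 0.540 in the parental line, 0.494 in the SPOC line and 0.361 in the DelPID line. A cause was not tested, and autosomal ratios are best read within a gene across stages.

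Filip1l, at chr16:57353276-57572804, was the most variable gene singled out after seeing the data. Its level was 14.1 and 646 CPM at ES d0, 55.5 and 2168 CPM at NPC d3, and 619 and 13790 CPM at NPC d6, higher in replicate 2 at every stage, and it made up 1.38% of all fragments in NPC d6 replicate 2. Its Dom share was 0.0016 in that library. In the other NPC d6 libraries of the series, those of this line with dTAG-13 included, it ranged from 27.7 to 46898 CPM. Cmss1, which overlaps it on the opposite strand, was 788 and 442 CPM at ES d0 and 1397 and 4421 CPM at NPC d6.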
